A study of Mus musculus with 6 samples.

Results

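The genes described here take part in signalling through G-protein-coupled receptors in the embryonic mouse heart. They are the protein-coding genes of the deposited table that carry the Gene Ontology (GO) term for the G-protein coupled receptor signaling pathway. Genes that also carry a term for heart or blood vessel development, angiogenesis, vasculogenesis, actin binding, muscle contraction, the sarcomere or Z disc, transcription factor activity, ion transport, cell adhesion, extracellular matrix or protein kinase activity were left out, as were Glp1r, Cck and Emr1. Of 1492 protein-coding genes in the table, 73 carry the term and 66 remained. All 66 enter the counts, and 63 of them are described by name and drawn in the plots. Whole hearts of C57BL/6 embryos at E11.5 from the Nkx2-5 hypomorphic line were compared, 3 from hypomorphic embryos, in which less NKX2-5 is made, and 3 from control littermates labelled WT. The labels give neither the alleles nor the sex of the embryos. The table is restricted to genes that passed the AC test, by which the authors compared read counts between the libraries, and that differed by 1.5-fold or more. It holds 1 value per group and none per heart. The spread between hearts and the depth per heart are therefore unknown, and the groups were described here without a test.

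G-protein-coupled receptors span the cell membrane and bind hormones, neurotransmitters, lipids, nucleotides, chemokines or odorants outside the cell. A bound receptor activates a heterotrimeric G protein, whose subunits then act on enzymes such as adenylyl cyclase and phospholipase C. Arrestins and RGS proteins, which speed up GTP hydrolysis by the G protein alpha subunit, end the signal. In the heart, adrenergic and muscarinic receptors set rate and force of contraction, and endothelin and apelin signalling take part in the growth of heart and vessels.

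Since NKX2-5 dosage is what differs between the groups, the RefSeq promoter windows of these genes were searched for TNAAGTG, the core that NKX2-5 is known to bind. Each window runs from 250 bases before to 50 after the transcription start in build GRCm38.p6, which is not the build of the deposited files. Windows were found for 49 of the 66 genes, and 6 of these genes (12.2%) held the letters on either strand. Over all 27025 genes with a window the share was 13.1%, so the genes described here are near the background. The 6 stretches with a match are printed below on the strand of the gene, with the match in capitals, to show which genes these are.
Gpr55: tcttctcttcCACTTCAagtcagacct
Gpr45: agcctccgggCACTTAAccttcaggtc
Gpr146: gatgtgagcaCACTTGAtctggagggc
Opn4: atcagggaccCACTTCAgagacagcca
Ccrl2: gtcagctacaTCAAGTGtcccagcatc
Rgs8: gctgcctggcTCAAGTGgtgggaggtg
The match lies on the opposite strand in Gpr55, Gpr45, Gpr146 and Opn4 and on the strand of the gene in Ccrl2 and Rgs8. The stretch of Ccrl2 is at chr9:111057529-111057555 and its match begins 27 bases before the transcription start. That of Gpr146 is at chr5:139389776-139389802, with the match 118 bases before the start. Gpr55, Gpr45 and Rgs8 are listed as lower and Gpr146, Opn4 and Ccrl2 as higher in hypomorphic hearts. A match is a stretch of letters and not a measured binding site, and a window without a match says nothing of NKX2-5 binding outside it. Lpar3 had a window without a match. The authors report enrichment for binding of this factor in the heart at an enhancer region of the Lpar3 locus. They describe that region as holding a second motif, which was not searched for here.

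By the authors' normalized group values, hypomorphic hearts had less of 41 and more of 25 of the 66 genes. The lower share was 62.1%, against 58.0% of all 1492 listed protein-coding genes, and the higher share was 37.9%, against 42.0%. The median log2 difference, hypomorphic minus control, was -0.66 over the 66 genes and -0.63 over all listed genes. The lower genes differed by a median fold of 1.74 and the higher genes by 1.95, where the listed genes as a whole gave 1.76 and 1.79. By at least 2-fold, 10 genes were lower (15.2%, against 17.9% of listed genes) and 12 higher (18.2%, against 14.6%). As each gene had to pass the authors' test to be listed, these counts and medians describe the listed genes only. Small differences are missing from the list, so a median mainly shows which direction holds more genes. The counts by role given in what follows rest on 3 to 15 genes each, were not tested, and stand beside the same 58.0% lower over all listed genes. The roles were chosen with earlier results of these data known.

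The genes had few reads. In the group where it was higher, a gene had a median of 109.5 raw reads, against 211 over all listed genes, and 31 of the 66 (47.0%, against 37.5%) had under 100. Raw reads are group means that the authors made before they normalized. For each ratio of raw means a 95% Clopper-Pearson interval was computed from the group's mean times its 3 hearts. It covers counting error only, and not the differences between hearts, and it holds no scaling between the groups. The plot of raw reads by gene shows how far apart the groups were.

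**Figure D1:**
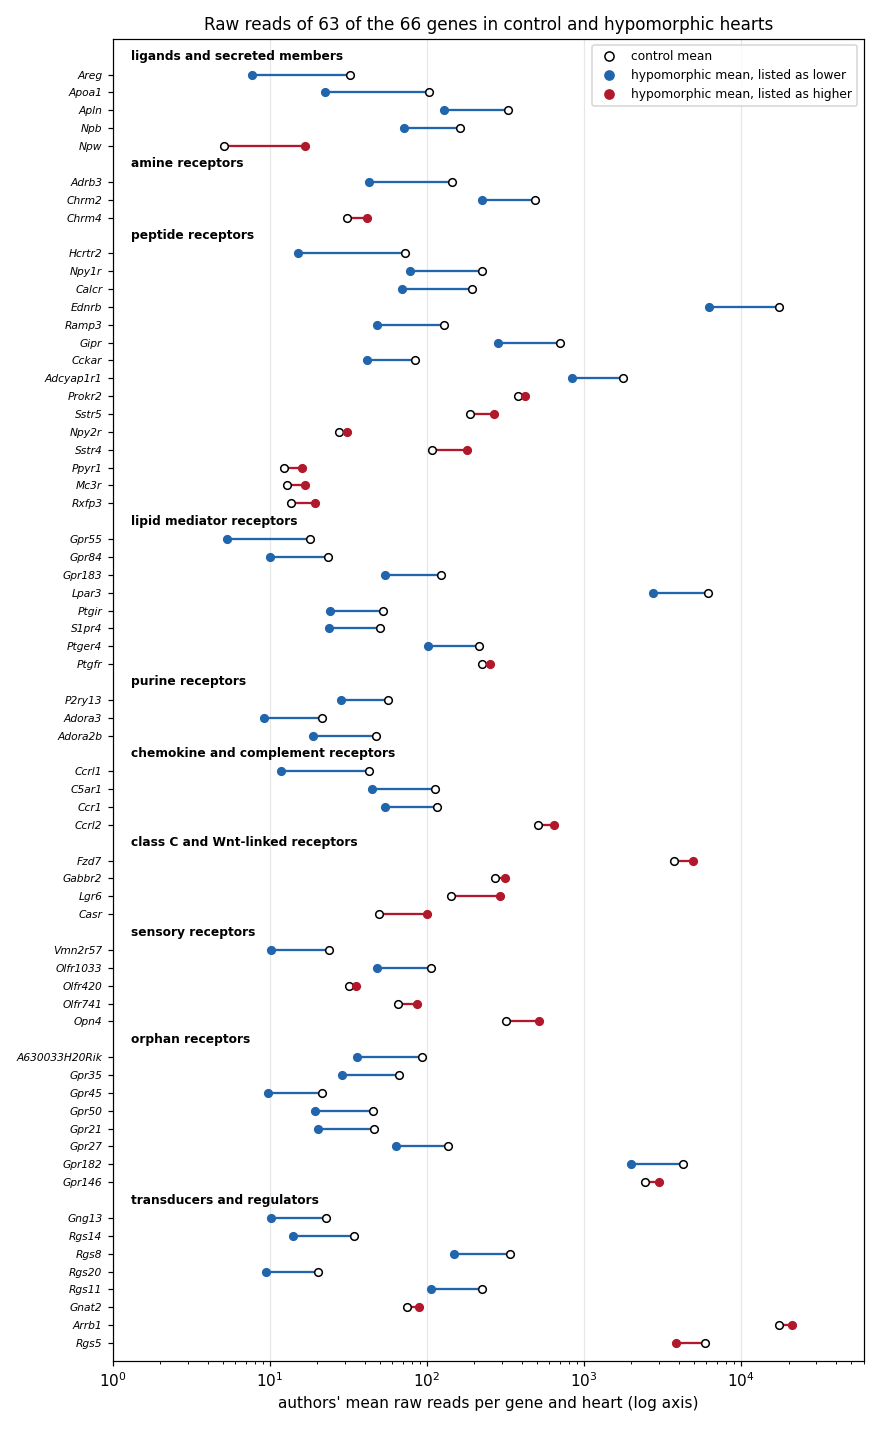
Each row is 1 of 63 genes, grouped by role, and the log axis gives the authors' mean raw reads per heart in control (open circles) and hypomorphic hearts (filled, blue for genes listed as lower and red for genes listed as higher). The hypomorphic mean of every lower gene is at most 0.500 of its control mean, whereas many higher genes have nearly equal raw means and Rgs5 has fewer raw reads in the group where it is listed as higher.

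Normalized and raw values differed by a shared amount. The log2 difference of the normalized values exceeded the log2 ratio of the raw means by a median of 0.47 over all listed genes (quartiles 0.44 and 0.50) and 0.47 over the 66 genes, a factor of 1.38 and 1.39 in favour of the hypomorphic hearts. Without this factor the 41 lower genes had raw ratios of hypomorphic to control between 0.209 and 0.500, and with Rgs5 42 of the 66 were lower by 1.5-fold or more on raw means (63.6%, against 58.1% of listed genes). Leaving Rgs5 aside, the higher genes had ratios between 1.02 and 3.32. Of the higher genes, 7 passed 1.5-fold on raw means without scaling (10.6% of the 66, against 11.1% of listed genes), Npw, Casr, Lgr6, Sstr4 and Opn4 among them. Most other listings as higher rest on the factor. It did not restore Rgs5, which stayed lower (-0.14) with the median factor on raw means, nor 1 further gene, which stayed under 1.5-fold. Which factor is right cannot be told from a table of listed genes.

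Whole hearts hold several cell types. Of 12 cardiomyocyte markers, 3 were listed, with Nppa and Pln lower and Myl7 higher, and Nppa had 178388 raw reads in control hearts. Of 12 erythroid markers, 11 were listed and all 11 were higher, their summed raw means going from 5698461 to 8419322. None of 12 endothelial and endocardial markers was listed. Msln was listed as lower of 9 epicardial markers, Elavl3 as lower and Sox10 and Th as higher of 12 neural crest and neuron markers, and Apob and Apoa2 as lower, besides Apoa1, of 15 liver and yolk sac markers. In whole tissue, fewer cells of a type and less RNA per cell cannot be told apart. Nkx2-5 itself was not among the listed genes read here so that the labels could not be checked by it.

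Of 5 genes of ligands and other secreted proteins, 4 were lower and Npw was higher, a count too small to set apart from the 58.0% lower over all listed genes. Apln, which encodes apelin, the ligand of the apelin receptor, had 328 raw reads in control hearts and 129 in hypomorphic hearts, a log2 difference of -0.80. Npb and Npw encode neuropeptides B and W, related ligands that share a receptor, and they were listed in opposite directions. Npb, on chromosome 11 from 120469791 to 120470407 in mm9, had 161 and 71.1 raw reads, a log2 difference of -0.73. Npw, on chromosome 17 from 24794275 to 24795370, had 5.05 and 16.8 raw reads and the largest log2 difference of all 66 genes, 3.09. The raw ratio of Npw was 3.32 with a counting interval from 1.84 to 6.39, and its normalized values were -2.51 in control hearts and 0.58 in hypomorphic hearts.

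Areg and Apoa1 carry the GO term without being classical ligands of these receptors. Areg encodes amphiregulin, a ligand of the epidermal growth factor receptor, and had 32.3 raw reads in control hearts and 7.67 in hypomorphic hearts. Its log2 difference, -1.75, was the lowest of the 66 genes. Apoa1 encodes the main apolipoprotein of high-density lipoprotein and had 103 and 22.3 raw reads. Its raw means differed 4.60-fold while its normalized values differed 1.74-fold.

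Adrb3, Chrm2 and Chrm4 are genes of amine receptors. Adrb3 encodes a beta-adrenergic receptor, a class that raises cyclic AMP. It had 144 raw reads in control hearts and 42.4 in hypomorphic hearts, a log2 difference of -1.27. Chrm2 and Chrm4 encode muscarinic acetylcholine receptors coupled to inhibitory G proteins, and Chrm2 is the main one of the heart. Chrm2 had 485 raw reads in control hearts and 224 in hypomorphic hearts (log2 difference -0.63), and Chrm4 had 30.7 and 41.3 (0.83). These muscarinic genes were thus listed in opposite directions. On raw means Chrm4 was under 1.5-fold without scaling (0.43) and when scaled to the total of listed genes (0.065).

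Among 15 genes of peptide receptors, with the accessory protein gene Ramp3 counted in, 8 were lower and 7 higher. The one with most reads per kilobase was Ednrb, the endothelin B receptor gene, on chromosome 14 from 104213842 to 104243390 in mm9. It had 17336 raw reads in control hearts and 6243 in hypomorphic hearts, a log2 difference of -1.003, and its raw ratio of 0.360 had a counting interval from 0.354 to 0.366. Hcrtr2, an orexin receptor gene, had 72.5 and 15.2 raw reads and a log2 difference of -1.70. The receptors of class B hormones that were kept here were lower as well. Glp1r was left out by name, so these genes do not stand for the whole class. Calcr (calcitonin) had 193 and 69.7 raw reads, Gipr (gastric inhibitory polypeptide) 698 and 283, and Adcyap1r1 (pituitary adenylate cyclase-activating polypeptide) 1757 and 830. Ramp3, an accessory protein that gives the calcitonin receptor affinity for amylin, was at 128 and 47.7. The log2 differences of these 4 genes were -1.02, -0.87, -0.60 and -0.94. Cckar, a cholecystokinin receptor gene, had 83.5 and 41.3 raw reads (log2 difference -0.72, and -0.55, under the threshold, with the median factor on raw means).

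The receptors of the neuropeptide Y family lay in both directions. Npy1r had 222 raw reads in control hearts and 78.3 in hypomorphic hearts, a log2 difference of -1.03. Npy2r had 27.7 and 31.0, and Ppyr1, the pancreatic polypeptide receptor gene, had 12.3 and 15.9. Their log2 differences were 1.15 and 1.24. The counting intervals of their raw ratios without scaling, 0.824 to 1.53 and 0.827 to 2.05, include 1. These intervals leave out the shared factor of 1.38 between the groups, so they do not show whether the normalized differences exceed counting error. Npy2r became lower (-0.20) with raw means scaled to the total of listed genes. The somatostatin receptors, which couple to inhibitory G proteins, were both higher. Sstr4 had 107 and 180 raw reads (log2 difference 1.23), and Sstr5 had 188 and 268 (1.01). Rxfp3, a relaxin-3 receptor gene, and Mc3r, a melanocortin receptor gene, were listed at 1.71 and 1.47 from 13.7 and 12.7 raw reads in control and 19.3 and 16.7 in hypomorphic hearts. Their raw ratios without scaling were 1.41 and 1.31. The counting intervals of these, 0.932 to 2.17 and 0.846 to 2.06, include 1 as well, with the same limit. Prokr2, a prokineticin receptor gene, lay just above the listing threshold at 0.59, with 380 and 418 raw reads, and it became lower (-0.23) with raw means scaled to the total of listed genes.

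Of 8 genes of receptors for lipid mediators, 7 were lower, which was not tested against the 58.0% over all listed genes. Lpar3, a lysophosphatidic acid receptor gene on chromosome 3 from 145883925 to 145949178 in mm9, had 6116 raw reads in control hearts and 2735 in hypomorphic hearts. Its log2 difference was -0.70 and its raw ratio 0.447 (counting interval 0.436 to 0.459). Gpr55 and Gpr84, receptors reported to bind lysophosphatidylinositol and medium-chain fatty acids, had 18.0 and 23.3 raw reads in control and 5.33 and 9.93 in hypomorphic hearts. Their log2 differences were -1.27 and -1.08. The prostanoid receptors were split. Ptgir (prostacyclin) and Ptger4 (prostaglandin E2) were lower at -0.67 and -0.62, and Ptgfr (prostaglandin F2 alpha) was higher at 0.63 from 222 and 250 raw reads. Ptgfr became lower (-0.20) with raw means scaled to the total of listed genes. S1pr4, for sphingosine 1-phosphate, and Gpr183, for oxysterols, were lower at -0.64 and -0.78.

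All 3 purine receptor genes were lower and had few reads, from 21.4 to 56.7 in control hearts. Their log2 differences were -0.88 for P2ry13 (ADP), -0.73 for Adora3 and -0.67 for Adora2b (adenosine). P2ry13 went under 1.5-fold (-0.53) with the median factor on raw means. Of 4 chemokine and complement receptor genes, Ccr1, Ccrl1 and C5ar1 were lower and Ccrl2 higher. Ccrl1, which encodes a receptor that takes up chemokines without G-protein signalling, had 42.5 and 11.7 raw reads (log2 difference -1.30). C5ar1, the receptor of complement fragment C5a, had 112 and 44.3 (-0.96). Ccrl2 had 510 and 641 raw reads (0.85), and it became lower (-0.036) with raw means scaled to the total of listed genes.

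Some of these receptors are known from immune cells, and 9 such genes had been grouped, across roles, for this reason. Of the 9, C5ar1, Ccr1, P2ry13, Gpr84, Gpr183, Gpr35, Adora3 and S1pr4 were lower and Ccrl2 was higher. Summed over all 9 genes, the raw means were 1079 in control and 892 in hypomorphic hearts. Of these sums Ccrl2, the higher gene, alone held 510 in control and 641 in hypomorphic hearts. Of 24 macrophage and leukocyte markers, 6 were listed and all 6 were lower, with summed raw means of 6087 and 1187. Lyz1 and Lyz2, near-identical genes that can share reads, held most of these reads in control hearts, and without them the remaining 4 markers (Mrc1, Aif1, F13a1 and Emr1) had 1920 and 829, a ratio of 0.432. The other 18 markers, Csf1r, Ptprc and Cd68 among them, were not among the listed genes read here. The part of immune cells in the values of these receptor genes was not tested. Without all 9 genes, 33 genes remained lower and 24 higher, where 58.0% of all listed genes were lower.

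The class C and Wnt-linked receptor genes were all 4 listed as higher, where 42.0% of all listed genes were higher. This small role joins receptors of different kinds and was chosen with earlier results of these data known. Its shared direction is therefore not a result of its own. Fzd7, a Wnt receptor gene, had 3723 raw reads in control hearts and 4933 in hypomorphic hearts, a log2 difference of 0.86 and a raw ratio of 1.32 (counting interval 1.29 to 1.36). Lgr6, a receptor for R-spondins, had 142 and 292 raw reads and a log2 difference of 1.49. Casr, the calcium-sensing receptor gene, had 49.5 and 99.4 raw reads and a log2 difference of 1.51. Lgr6 and Casr stayed over 1.5-fold on raw means under each of the 4 scalings tried, whereas Fzd7 did so only with the median factor. Gabbr2, a subunit of the GABA-B receptor, had 270 and 315 raw reads (0.91) and became lower (-0.14) with raw means scaled to the total of listed genes.

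**Figure D2:**
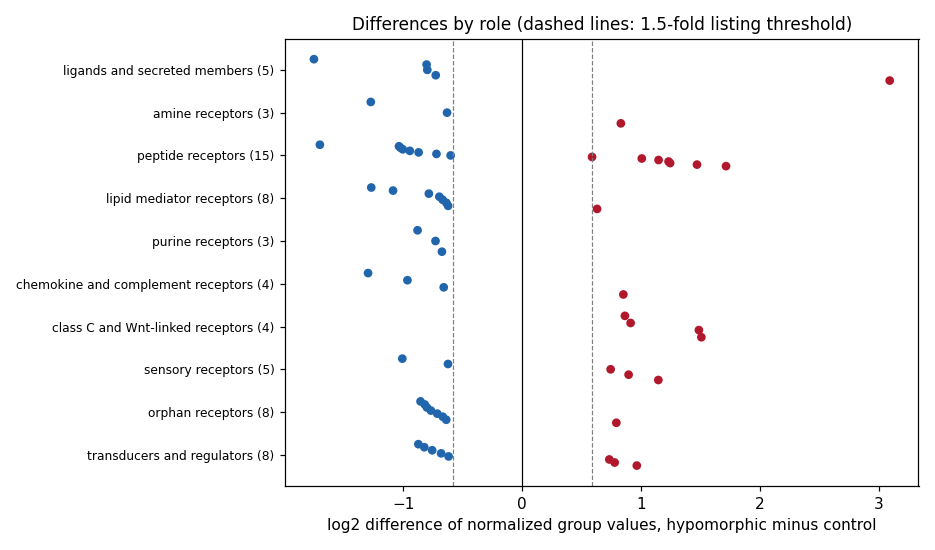
Each point is a gene, placed by its log2 difference of normalized group values (hypomorphic minus control), in rows by role with the number of genes drawn in parentheses, and the dashed lines mark the 1.5-fold listing threshold. Purine receptors lie on the lower side and class C and Wnt-linked receptors on the higher side, while the amine, peptide, sensory and other rows hold both, from Areg at -1.75 to Npw at 3.09. The roles are small and were chosen with earlier results of these data known.

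Sensory receptor genes and orphan receptor genes lay in both directions. Opn4, which encodes melanopsin, the light receptor of retinal ganglion cells, had 316 raw reads in control hearts and 513 in hypomorphic hearts (log2 difference 1.15). The 3 olfactory receptor genes were split, with Olfr1033 at -0.62, Olfr420 at 0.74 and Olfr741 at 0.89, and Olfr420 became lower (-0.20) with raw means scaled to the total of listed genes. Vmn2r57, a vomeronasal receptor gene, was at -1.01, but 69.9% of its transcript's 50-base words also occur in other genes' transcripts, so its reads are uncertain. The same share was 28.6% for Olfr741 and 10.6% for Ccrl1, which the annotation holds under more than 1 gene, and it was at most 10% for the other 63 genes and 0 for 53.

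Of 10 receptor genes treated as orphans, 7 were lower. Gpr182, which is expressed in endothelium, had 4271 raw reads in control hearts and 1991 in hypomorphic hearts (log2 difference -0.64, raw ratio 0.466, counting interval 0.452 to 0.481). The other lower ones were Gpr21, Gpr27, Gpr35, Gpr45, Gpr50 and A630033H20Rik, between -0.67 and -0.85, with 21.4 to 135 raw reads in control hearts. Gpr146, listed as higher, had 2447 and 2991 raw reads (0.79), and it became lower (-0.076) with raw means scaled to the total of listed genes.

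Downstream of the receptors, 5 genes were lower and 3 higher. Arrb1 encodes beta-arrestin 1, which uncouples receptors from G proteins and carries them into the cell. It had 17288 raw reads in control hearts and 20938 in hypomorphic hearts, a log2 difference of 0.78, and its raw ratio of 1.21 (counting interval 1.20 to 1.23) stayed under 1.5-fold without scaling and became lower (-0.089) when scaled to the total of listed genes. Gng13 and Gnat2 encode a gamma and an alpha subunit of G proteins and were listed at -0.87 and 0.73. Gng13 is uncertain, since 51.6% of its exonic bases are shared with Chtf18 on the opposite strand and the counting is not stated to use strand. Gnat2 became lower (-0.12) with raw means scaled to the total of listed genes.

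Of 5 RGS genes, 4 were lower, again a small count beside the 58.0% over all listed genes. Rgs8 had 339 raw reads in control hearts and 148 in hypomorphic hearts (log2 difference -0.76), and Rgs11 had 223 and 106 (-0.62). Rgs14 and Rgs20 had 34.5 and 20.3 raw reads in control and 14.1 and 9.45 in hypomorphic hearts (-0.82 and -0.68). Rgs5, known as a marker of pericytes and other mural cells, was the exception and the one gene of the 66 whose raw and normalized values pointed in opposite directions. It had 5862 raw reads in control hearts and 3853 in hypomorphic hearts, a raw ratio of 0.657 (counting interval 0.642 to 0.673), yet its normalized value was -1.20 in control hearts and -0.24 in hypomorphic hearts, a log2 difference of 0.96. It was lower on raw means under each of the 4 scalings. Such a disagreement occurred in 4 of the 1492 listed genes (0.268%). Myh11, the only other of 10 mural and smooth muscle markers that was listed, was higher by both measures, with 482 and 1082 raw reads.

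**Figure D3:**
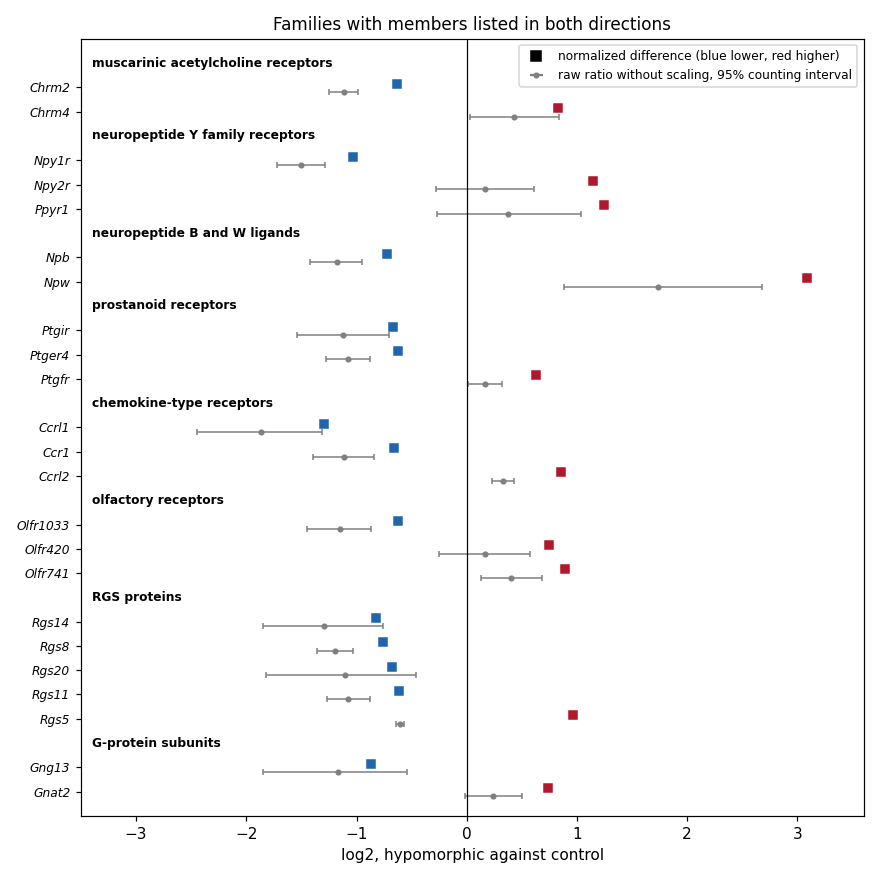
For families with genes listed in both directions, squares give the log2 difference of normalized values (blue lower, red higher) and grey circles the log2 ratio of raw means without scaling, with 95% Clopper-Pearson counting intervals as bars. The intervals of Npy2r, Ppyr1, Olfr420 and Gnat2 include 0, and Rgs5 has its square at 0.96 and its circle at -0.61.

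The gap between the normalized difference and the raw ratio was wide for more of these genes than Rgs5. It lay over 0.25 from its median, on the log2 scale, in 10 of the 66 genes (15.2%), against 82 of 1492 listed genes (5.50%). Among them, Rgs5 (1.10 above the median), Apoa1 (0.93), Npw (0.89), Rxfp3 (0.75), Mc3r (0.61), Npy2r (0.51) and Ppyr1 (0.40) had wider gaps, and P2ry13 (-0.35) and Gpr84 (-0.32) narrower ones. Of these 10 genes, 7 had under 100 raw reads even in their higher group, whereas Rgs5 and Apoa1 had more. For genes with a wide gap the size of the difference depends on which of the authors' summaries is used. The values read here are per group and not per heart, so they cannot settle it. With the 56 other genes alone, 38 were lower and 18 higher, where 58.0% of all listed genes were lower.

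**Figure D4:**
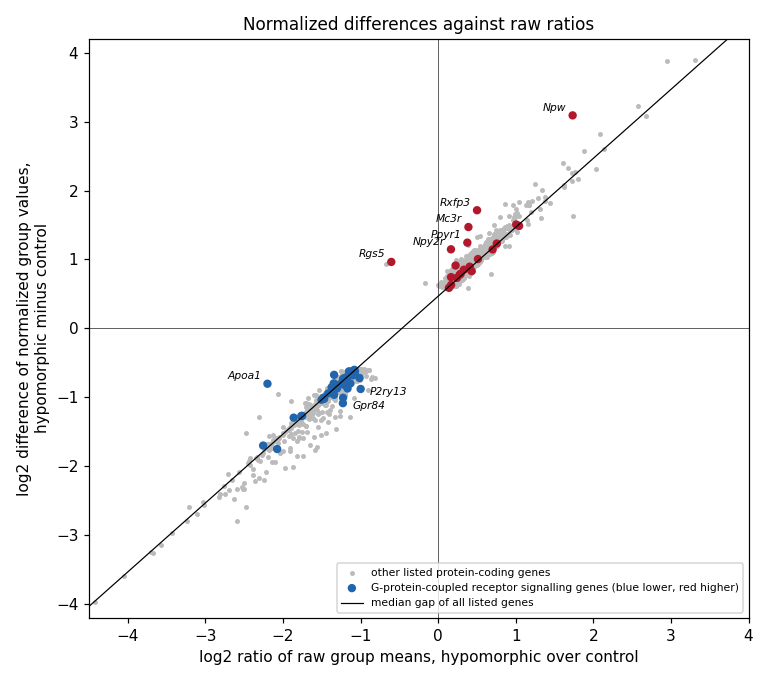
The horizontal axis is the log2 ratio of raw means and the vertical axis the log2 difference of normalized values, hypomorphic against control, with 63 of the 66 genes in blue (lower) and red (higher), the other listed genes in grey (4 lie outside the frame) and a line at the median gap of 0.47. Most genes follow the line, Rgs5 sits in the upper left quadrant, and Apoa1, Npw, Rxfp3 and Mc3r lie above the line.

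Levels can be compared between genes only per length of transcript. In control hearts Ednrb led with 4346 raw reads per kilobase of its longest transcript, followed by Lpar3 (2452), Arrb1 (2424), Rgs5 (1431) and Gpr182 (1080). In hypomorphic hearts Arrb1 led with 2936, followed by Ednrb (1565), Lpar3 (1096), Fzd7 (1027) and Rgs5 (941). The lowest levels in control hearts were those of Rxfp3 (3.21), Ppyr1 (3.38) and Mc3r (4.85). Without values per heart, it is unknown which neighbours in this order differ.

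Other GO terms of the 66 genes, which the rule for the choice did not name, were counted next. They overlap in meaning with the term that was used and are not independent of it. The counts over all listed genes include the 66, so any difference comes from listed genes outside the 66. The neuropeptide signaling pathway was attached to 11 of them, 5 lower and 6 higher, against 7 lower and 8 higher over all listed genes. Activation of adenylate cyclase was attached to 7, of which 6 were lower and 1 was higher, and over all listed genes this term had 7 lower and 5 higher. A rise of cytosolic calcium was attached to 7, 5 lower and 2 higher, and over all listed genes this term had 6 lower and 5 higher. G-protein coupled receptor activity was attached to 52, of which 31 (59.6%) were lower, against 33 of the 58 listed genes with this term (56.9%). These counts are small and were not tested.

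The wider pathway was read from lists of 89 transducer and 65 partner genes. Of the transducers, 14 were listed, 8 lower and 6 higher, and 9 of these are described above. The other 5 were Plcb2, a phospholipase C gene, and Pde4d, a cyclic AMP phosphodiesterase gene, both lower at -0.67 and -0.62, and the adenylyl cyclase genes Adcy7, Adcy1 and Adcy8, higher at 0.61, 0.64 and 1.24. Adcy7 and Adcy1 had raw ratios of 1.12 and 1.14, so their listing rests on the factor between the groups. Of the partner genes, 8 were listed, among them Apln, Npb and Npw. Sst, the ligand gene of the somatostatin receptors, had 1.33 raw reads in control hearts and 26.3 in hypomorphic hearts, a log2 difference of 4.23. Rspo2, a ligand gene of the receptor family of Lgr6, was at 0.77, and Ccl3, a ligand gene of Ccr1, at 1.11 from 9.71 and 14.3 raw reads. Cck was higher (3.08) and Nppa, whose peptide acts on receptors of another kind, was lower (-0.66). The remaining 57 partner genes and 75 transducer genes were not among the listed genes read here.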

How the data were processed

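Libraries made by the authors from total RNA of 6 hearts, 3 per group, were run on the Genome Analyzer IIx, mapped to mm9 by TopHat, and analysed in Avadis NGS against RefSeq. The submitters' processing notes also name CASAVA 1.4. The raw columns deposited by the authors hold estimated counts, averaged over the hearts of each group. The normalized columns deposited by the authors hold log2 values per group, set against a baseline of each gene by a method not given in the sources used here. The authors' columns of fold changes and direction were not used. Differences were computed as hypomorphic minus control normalized values.

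The design foresaw no test where the table holds group values only, and this applied. Genes named in full were the 6 largest differences in each direction, genes with at least 1000 raw reads, genes whose raw and normalized directions differ, and families in both directions. Members, roles and lists were chosen with earlier results of these data known, and 2 orphan receptor genes were given a role after the table was read. All 66 genes enter the counts, but 3 of them are not reported here by name. Only 164 of 1492 control means became whole when multiplied by 3 (tolerance 0.01), so reads were rounded for the counting intervals. Gene positions, transcript lengths, overlaps and shared words of 50 bases came from GENCODE M1 on mm9, in which all 66 genes were placed. The depth per heart is unknown. The scripts were tested on simulated data. Computation used Python 3.11.15 with scipy 1.17.1, pandas 2.3.3 and numpy 2.4.6, and figures were drawn with matplotlib 3.10.9.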

Additional observations from a re-analysis of the deposited data

How the results depend on the processing

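The numbers of lower and higher genes, 41 and 25 by normalized values, depended on the scaling mainly on the higher side. None of the scalings tried raised the listed genes in the median, so the lower side was hardly exposed to them. With raw means the numbers were 42 and 7 without scaling, 42 and 5 scaled to the total of listed genes, 42 and 7 scaled to that total without globin genes, and 39 and 23 with the median factor of 1.38. Over all 1492 listed genes the numbers were 865 and 627 by normalized values. In the same order of scalings they were 867 and 166, 867 and 57, 867 and 166, and 811 and 593. The drop on the higher side was therefore not particular to the genes described here. Over all listed genes, the shift from the normalized differences was -0.47, -0.83 and -0.47 on the log2 scale under the first 3 of these, and the corresponding medians over the genes described here were -1.10, -1.47, -1.10 and -0.63, against -0.66. With at least 100 raw reads the numbers were 21 and 14 (median -0.62). With a fold of at least 2 they were 10 and 12 (267 and 218 over all listed genes), and the median became 1.08. That change of sign is not a reversal of the genes, because no small difference is left and the side with more genes sets the median. Fewer genes remain under both of these settings. With 2 further settings, chosen after seeing the data, the median was -0.67 over genes with a gap within 0.25 of its median and -0.63 without the genes known from immune cells.

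Rgs5 reversed under all 4 scalings of raw means, to -0.61 without scaling, -0.14 with the median factor, -0.97 with the total of listed genes and -0.60 with that total without globin genes. The total of listed genes, most of it globin reads, also reversed further genes, among them Prokr2 (-0.23), Npy2r (-0.20), Olfr420 (-0.20), Ptgfr (-0.20), Gabbr2 (-0.14), Gnat2 (-0.12), Arrb1 (-0.089), Gpr146 (-0.076) and Ccrl2 (-0.036). All 41 lower genes stayed lower under the 4 scalings, though Cckar and P2ry13 went under 1.5-fold with the median factor. This could hardly come out otherwise, since the scalings left the listed values unchanged in the median or moved them down. Why the factors differ was not tested.

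No paired analysis was possible because the authors' values are given per group and not per heart. Leaving out a replicate was not run for the same reason.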

Other observations

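The 66 genes lie on 18 chromosomes in mm9. Pairs less than 1 Mb apart numbered 6, of which 4 were listed in the same direction. Pairs on chromosome 17 share genes and are not independent. Over all listed genes 58.0% were lower and 42.0% higher, and the share of pairs with 1 direction was not computed for them. The count is therefore not a result about these genes. On chromosome 17, Gng13 (-0.87) lay 220 kb and Rgs11 (-0.62) 706 kb from Sstr5 (1.01), and Npw (3.09) lay 831 kb from Sstr5. On chromosome 14, Opn4 (1.15) and Ppyr1 (1.24) lay 438 kb apart, and on chromosome 7, C5ar1 (-0.96) and Ptgir (-0.67) lay 647 kb apart.

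The normalized values are relative to a baseline for each gene, and in most genes 1 group lay above it and the other below. Both groups lay below it in Rgs5 (-1.20 and -0.24 in control and hypomorphic hearts), as in 19 of the 1492 listed genes (1.27%). Both lay above it in, among others, Apoa1 (0.96 and 0.16), Gpr146 (0.021 and 0.81) and Gabbr2 (0.051 and 0.96), as in 77 listed genes (5.16%).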
